A study of Rattus norvegicus with 49 samples.

Results

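The genes described here are 7 liver conjugation genes of the rat, the UDP-glucuronosyltransferase (UGT) genes Ugt2b7, Ugt2b1, Ugt2a3 and Ugt1a6 and the sulfotransferase genes Sult1a1, Sult1b1 and Sult1e1. They were found on the array by the RefSeq accession that a probe carries. Of the 15154 gene symbols that the array's probes could be given, 6 of the 7 were among them, with 8 probes in all, and 0 of these 8 probes failed the filter on dim signals. Ugt1a6 and Sult1b1 had 2 probes each. No probe carried an accession of Sult1e1, the estrogen sulfotransferase, and it has no value here.

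Conjugation is the second step of xenobiotic metabolism. UGT enzymes, which sit in the membrane of the endoplasmic reticulum, join glucuronic acid from UDP-glucuronic acid to a drug, hormone or bilirubin, and cytosolic SULT enzymes join a sulfate from the donor PAPS, so that the product dissolves in water and leaves in bile or urine. In rat liver many of these genes differ between the sexes, and some respond to xenobiotic receptors, Ugt1a6 being a textbook target of the aryl hydrocarbon receptor.

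F344 rats, an inbred strain, were given furan, a liver toxicant and carcinogen of rodents formed when food is heated, and the question asked of these genes is how their transcripts varied with dose in each sex. Dosing began at 7 to 8 weeks of age and was by oral gavage in corn oil on 5 days a week for 90 days, with 2 mg/kg bw/day as the top dose, lower doses of 0.5, of 0.12 and of 0.03, and corn oil alone (0 mg/kg bw/day) for the controls, in male and in female rats, with livers taken the day after the last dose. Each group had 5 rats, except the males at 0.03 mg/kg bw/day with 4, which gives 49 arrays on 8 slides, 1 rat to an array. Every array compared Cy5-labelled liver RNA with a Cy3-labelled universal rat reference RNA, so each value below is a log2 ratio of liver over that reference, and no level of 1 gene is set against another's. No genetic change is labelled in any group, and because the RNA is from whole liver, fewer cells of a type and less RNA per cell cannot be told apart.

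The arrays were uneven. On 48 of them 37.9% to 71.1% of liver spots were well above background, and on that of male 26, dosed at 0.03 mg/kg bw/day, 5.06% were. This dim array is kept in the main values, and results are also given without it where they differ. Slides 5 and 6 held 0 control arrays and were dim in the liver channel (slide medians of 43.2% and 45.0%), so slide was a term in every main model. All 10 hepatocyte markers had a tested probe, and their mean log2 ratio lay at 5.41 to 7.48 in control males and at 3.61 on the dim array, the lowest of all arrays.

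Ugt2b7 was the 1 gene of the set called changed with furan in the main model, by the rule given below. It rose in male rats at 2 mg/kg bw/day by a log2 change of 1.46 ± 0.20 (SE), a fold change (FC) of 2.76, and in female rats at that dose the value was -0.05 ± 0.21. The male and female effects differed by 1.51 ± 0.28 on the log2 scale (limma, Benjamini-Hochberg adjusted p = 0.0157). A gene is called changed here when its adjusted p over all 17661 tested probes is at most 0.05 and its FC at least 1.5 in either direction. By that rule 1 of 6 genes was called in males at 2 mg/kg bw/day, beside 3.81% of all tested probes (2.43% rose and 1.38% fell), and 1 of 6 in the comparison of the sexes, beside 0.108%.

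Because Ugt2b7 was called and Ugt2b1, close to it on the chromosome, was not, the 250 bases before the RefSeq start of each are shown, both on the plus strand of the GRCr8 assembly, at chr14:21251285-21251534 and chr14:21378632-21378881. The third is Ugt1a6, at chr9:96194768-96195017 on the plus strand, shown because it was the 1 member with a match to GCGTG. Sequences run 5′ to 3′ and capitals mark motif matches.
Ugt2b7: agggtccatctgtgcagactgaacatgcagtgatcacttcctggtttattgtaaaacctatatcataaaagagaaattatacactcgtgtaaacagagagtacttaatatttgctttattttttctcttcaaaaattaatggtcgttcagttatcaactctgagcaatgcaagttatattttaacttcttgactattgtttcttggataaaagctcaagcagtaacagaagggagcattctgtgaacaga
Ugt2b1: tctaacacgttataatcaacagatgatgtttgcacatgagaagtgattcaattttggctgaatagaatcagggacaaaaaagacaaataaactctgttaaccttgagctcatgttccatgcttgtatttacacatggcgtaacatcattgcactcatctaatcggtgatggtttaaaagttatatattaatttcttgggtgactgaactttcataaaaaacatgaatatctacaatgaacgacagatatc
Ugt1a6: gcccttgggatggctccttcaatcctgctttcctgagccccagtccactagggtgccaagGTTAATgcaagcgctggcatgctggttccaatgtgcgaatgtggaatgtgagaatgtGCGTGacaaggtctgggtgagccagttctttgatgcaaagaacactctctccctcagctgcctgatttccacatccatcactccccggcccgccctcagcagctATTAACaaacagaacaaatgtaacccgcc
Both strands were searched for GCGTG, the core bound by the aryl hydrocarbon receptor, TGACNNNGC, the core of the antioxidant response element, and GTTAAT, an arm of the HNF1 site. Ugt2b7, Ugt2b1, Sult1a1, Sult1b1 and Sult1e1 held none of these letters in their 250 bases. Ugt1a6 held GCGTG once, 133 to 129 bases before its start, and GTTAAT at 2 places that do not overlap it, and Ugt2a3 held GTTAAT once. Of 33469 promoters of the same length 25.9% held GCGTG, 10.1% TGACNNNGC and 6.45% GTTAAT. A match is only a run of letters, and furan's effect on these genes was not tested against it.

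The Ugt2b7 log2 ratio was -1.79, -1.60, -1.39, -1.36 and -0.98 in the 5 control males. In the 5 males at 2 mg/kg bw/day it was -1.0, -0.10, 0.41, 0.47 and 1.09. Of these, 4 of 5 lay above the highest control male, and the male at -1.0 lay within the control range, so the groups overlapped by that 1 animal. The males at 0.41 and -0.10 were on slides 5 and 7, which held no male control. The control females read -1.81, -1.76, -1.59, -1.50 and -1.35, and the females at 2 mg/kg bw/day read -1.62, -1.50, -1.08, -1.07 and -0.98. In the females 3 of 5 treated arrays lay above the highest control, and all 3 came from slides 5 and 8, where the liver channel was dim and 0 female controls were placed.

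**Figure D1:**
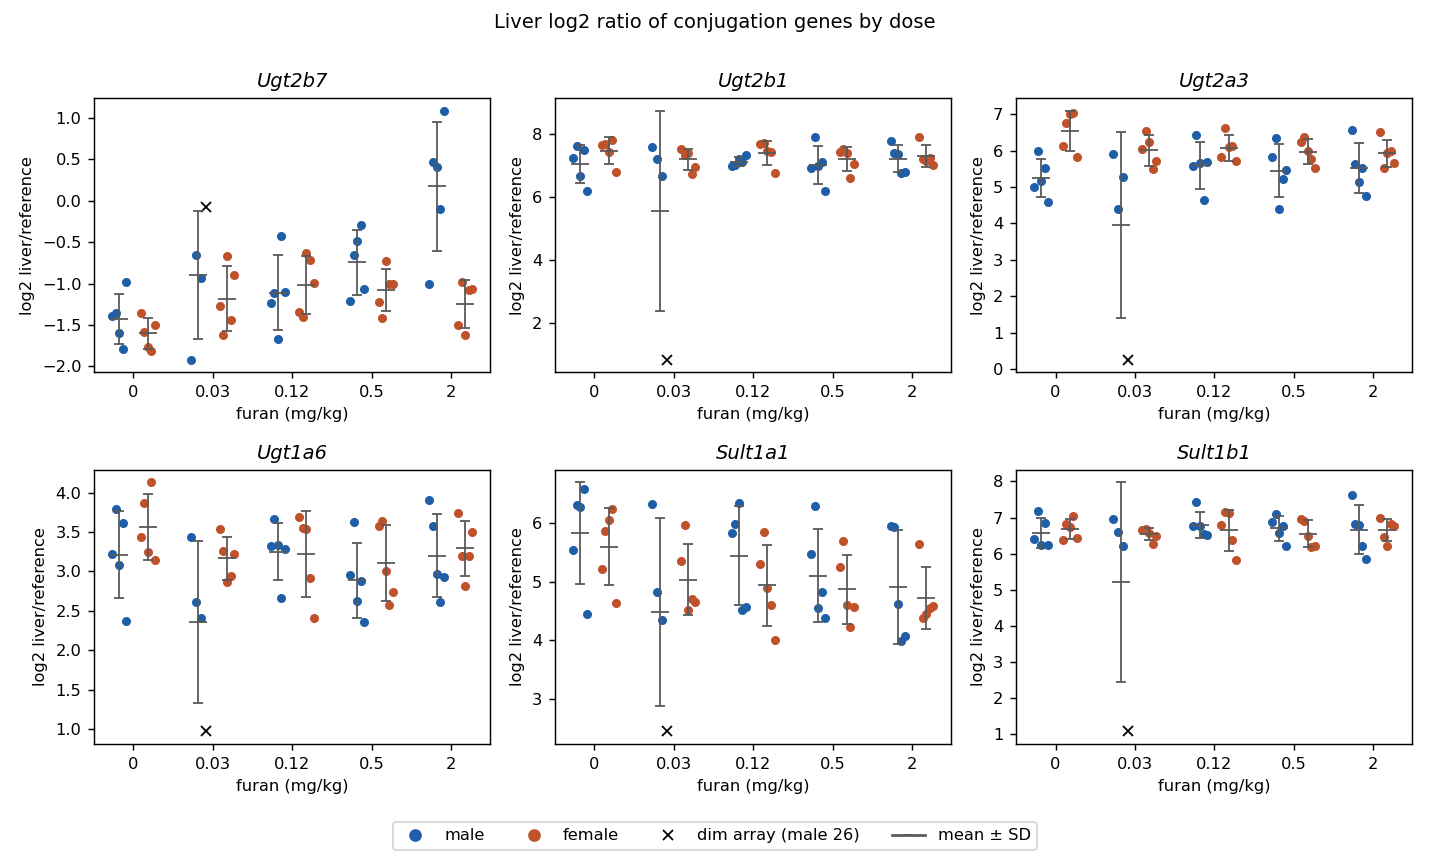
Log2 ratio of liver over reference RNA (y axis) by furan dose in mg/kg bw/day (x axis, not to scale) for the brightest probe of each gene, 1 point per rat, males blue and females orange, with the group mean and SD in grey. The male Ugt2b7 points at 2 mg/kg reach from -1.0 to 1.09 while the control males end at -0.98, and the cross marks the dim array of male 26, which is lowest of its group for every gene but Ugt2b7.

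The level of Ugt2b7 was low, and this bears on how its values read. The liver channel stood well above background for it on 3 of 5 control males, 5 of 5 males at 2 mg/kg bw/day, 4 of 5 control females and 1 of 5 females at 2 mg/kg bw/day. Across the 25 female arrays its log2 ratio fell where more liver spots were above background (Pearson r = -0.91, a description of arrays that share slides). After the slide means were removed from the ratio, but not from the share of spots, r was -0.09. In the 23 males without the dim array, which was kept in the slide means, these values were -0.43 and -0.04. The share of spots differed mostly between slides, which draws the second r toward 0. It therefore cannot show whether the slide term cleared this dependence. By the counts given first, the female comparison at the top dose rests on 1 treated array with a signal well above background.

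Slides that held a treated and a control rat of 1 sex gave 5 pairs. In males the treated array exceeded its control by 0.36 on slide 2, 2.25 on slide 4 and 2.07 on slide 8, all log2 differences, though on slide 8 the control was not well above background. In females the differences were 0.09 on slide 2 and -0.11 on slide 7. The 3 male pairs all pointed up, and the smallest of them held the same male that overlapped the controls.

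With slide in the model the male change at 2 mg/kg bw/day had a 95% confidence interval of 1.06 to 1.87 (limma, adjusted p = 1.24e-05), and the female one of -0.47 to 0.37 (adjusted p = 0.938). An effect at any dose was found in males (limma's F test, adjusted p = 4.32e-05, beside 12.1% of all tested probes with such an effect) and not called in females (adjusted p = 0.814, beside 0.804%). The male call held in each of 10 fits that left out 1 rat of the groups compared, with log2 changes of 1.23 to 1.74. With the scanner software's own ratio it was 3.21, also called. The call of a sex difference was weaker, since it was lost without control female 7 (adjusted p = 0.0529), control male 3 (0.0589), female 83 (0.0523) or male 87 (0.0551) of the top dose, with values of 1.32 to 1.77 over all 20 such fits. It was also lost when slide was left out of the model (1.24, adjusted p = 0.71).

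**Figure D2:**
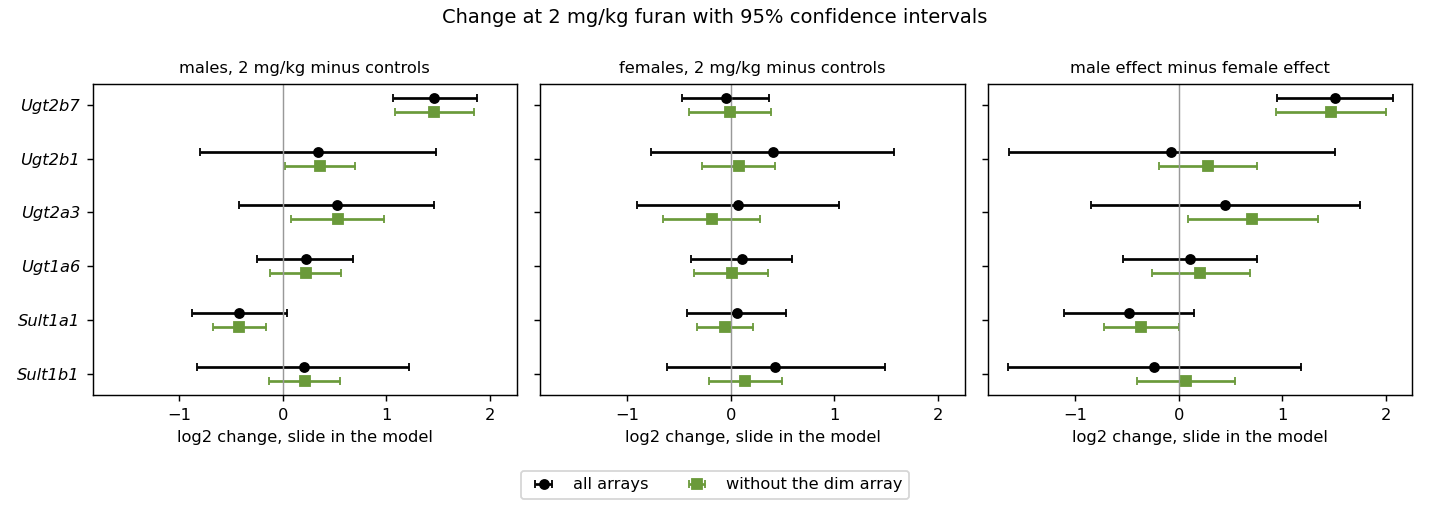
Log2 change at 2 mg/kg bw/day with its 95% confidence interval (x axis) for each gene, in males, in females and as the male minus the female effect, with slide in the model. Black circles use all 49 arrays and green squares leave out the dim array, and Ugt2b7 in males (1.46) and in the comparison of the sexes (1.51) is the one gene whose black interval excludes 0. In males the green intervals of Sult1a1 (-0.67 to -0.16), Ugt2a3 (0.08 to 0.98) and Ugt2b1 (0.02 to 0.7) exclude 0 too. So does that of Ugt2a3 in the comparison of the sexes (0.09 to 1.34), and none of these was called.

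At the lower doses the Ugt2b7 changes were smaller and none was called. In males they were 0.47 ± 0.20 at 0.5 mg/kg bw/day, 0.19 ± 0.20 at 0.12 and 0.33 ± 0.22 at 0.03 (0.12 ± 0.23 without the dim array), on the log2 scale with SE. At those doses 0.142%, 0.17% and 0% of all tested probes were called. In females they were 0.25, 0.30 and 0.16 at 0.5, 0.12 and 0.03 mg/kg bw/day, each with an SE of 0.20, beside 0.017%, 0.00566% and 0% of probes.

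The 10 group means of Ugt2b7, as measured log2 ratios, stood in the order control females (-1.60 ± 0.19, SD), control males (-1.42 ± 0.30), females at 2 mg/kg bw/day (-1.25 ± 0.29), females at 0.03 (-1.18 ± 0.39), males at 0.12 (-1.11 ± 0.45), females at 0.5 (-1.07 ± 0.26), females at 0.12 (-1.01 ± 0.35), males at 0.03 (-0.90 ± 0.77), males at 0.5 (-0.74 ± 0.39) and males at 2 mg/kg bw/day (0.17 ± 0.78). Each step in that order was smaller than the SD of the groups on either side of it, except the last one, to the males at the top dose. Control males minus control females was 0.08 ± 0.19, which was not called (adjusted p = 0.842).

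Ugt2b1, which encodes another UGT2B enzyme of hepatocytes, lies near Ugt2b7. Its log2 ratio was 6.20, 6.67, 7.24, 7.50 and 7.62 in control males and 6.76, 6.78, 7.37, 7.40 and 7.78 in males at 2 mg/kg bw/day. The ranges overlapped almost entirely, and the change was 0.34 ± 0.56 on the log2 scale (interval -0.80 to 1.48). In females it was 0.41 ± 0.58. Without the dim array, which read 0.84 for this gene, the standard errors shrank and the changes were 0.36 ± 0.17 in males (adjusted p = 0.118) and 0.08 ± 0.17 in females.

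Ugt2a3, a UGT2A enzyme of liver and intestine, stood out between control sexes. The control males read 4.60, 5.00, 5.16, 5.53 and 5.98 and the control females 5.81, 6.12, 6.75, 7.01 and 7.03. The lowest female lay below the highest male, and the others were separate. Male controls were lower by a log2 difference of -1.14 ± 0.45, which was not called (adjusted p = 0.0878), and without the dim array it was -1.27 ± 0.22 and was called (adjusted p = 3.58e-05). Of the 6 genes 0 were called between control sexes in the main model, beside 5.51% of all tested probes, and 1 without the dim array, beside 6.42%. In 0 of the 6 were the arrays of the control sexes fully apart, beside 6.3% of probes. With furan at 2 mg/kg bw/day the Ugt2a3 change was 0.52 ± 0.46 in males and 0.07 ± 0.48 in females. The treated males read 4.75 to 6.57, with 1 of 5 above the highest control male. Without the dim array the changes were 0.53 ± 0.22 in males (limma, adjusted p = 0.0811) and -0.18 ± 0.23 in females. In males at 0.5 and 0.12 mg/kg bw/day they were then 0.55 ± 0.23 and 0.55 ± 0.22, also not called.

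Ugt1a6, which glucuronidates small planar phenols, was not called at any dose. Its brighter probe read 2.37, 3.08, 3.22, 3.61 and 3.79 in control males and 2.61, 2.93, 2.97, 3.57 and 3.91 at 2 mg/kg bw/day. The ranges overlapped, and the log2 changes of the brighter and the dimmer probe were 0.22 ± 0.23 and 0.34 ± 0.21 in males and 0.11 ± 0.24 and 0.25 ± 0.21 in females. The UGT1A genes of the rat share their last exons, and where these probes lie in the transcript was not examined, so a signal of another UGT1A transcript cannot be told apart from that of Ugt1a6. Among 4 tested genes of a list of aryl hydrocarbon receptor targets, 1 rose in males at 2 mg/kg bw/day, Nqo1, a quinone reductase that also belongs to the NRF2 response (0.74 ± 0.25, adjusted p = 0.0382), beside 2.43% of all tested probes that rose. The other 3 were below 0 and not called, Cyp1a2 at -0.38 ± 0.39, Aldh3a1 at -0.23 ± 0.25 and Ahrr at -0.17 ± 0.19, and the median of the 4 was -0.20.

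Of the sulfotransferases, Sult1a1, which sulfates phenols, had lower values at the top dose in males without being called. Its log2 ratio was 4.45, 5.54, 6.28, 6.31 and 6.59 in control males and 3.99, 4.07, 4.62, 5.94 and 5.96 in males at 2 mg/kg bw/day. The ranges overlapped, with 2 of 5 treated males below the lowest control. The change was -0.42 ± 0.23 (adjusted p = 0.225) with all arrays and -0.42 ± 0.13 without the dim one (adjusted p = 0.0154), an FC of 0.75 that does not reach the fold threshold. On slides 2, 4 and 8 the treated male was below its control by log2 differences of -0.35, -0.66 and -0.38. The female pairs on slides 2 and 7 differed by -0.21 and -0.19. In females the change was 0.06 ± 0.23, without the dim array -0.06 ± 0.13, and without slide in the model -0.88 (adjusted p = 0.276). The male minus the female effect was -0.48 ± 0.31 and was not called (limma, adjusted p = 0.485). Of the 5 treated females 3 sat on slides 5 and 8, where there were 0 female controls.

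Sult1b1, a thyroid hormone and phenol sulfotransferase that lies in the same stretch of chromosome 14 as Ugt2b7, was not called at any dose. The brighter probe read 6.24, 6.25, 6.40, 6.84 and 7.17 in control males and 5.86, 6.22, 6.80, 6.83 and 7.63 at 2 mg/kg bw/day. Treated values lay on both sides of the controls, and the log2 changes of its probes were 0.20 ± 0.51 and 0.14 ± 0.40 in males and 0.43 ± 0.52 and 0.34 ± 0.42 in females. Without the dim array, at 1.08 for the brighter probe, those of the brighter probe were 0.21 ± 0.17 and 0.14 ± 0.17.

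In females at 2 mg/kg bw/day 0 of 6 genes were called, beside 0.657% of all tested probes. The median log2 change of the 6 genes was 0.28 in males and 0.09 in females, beside -0.02 and 0.01 over all tested probes. In males 5 of the 6 changes were above 0, and 0 of 6 genes had treated and control arrays that did not overlap, beside 4.26% of probes overall (the female share was 4%). At 0.03 mg/kg bw/day 0 of 6 were called, but when male 22, 25 or 27 was left out, so that the dim array was 1 of 3 in its group, 5, 1 and 4 genes were called. The share of all tested probes called in those fits is not given here, so these counts cannot be set beside it.

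Ugt2b7 lies on chromosome 14 among 14 genes that run, in RefSeq order, from Sult1e1 through Sult1b1 and Ugt2a3 to Ugt2b7, Ugt2b1 and Ugt2b10, and 8 of these 14 were tested. Ugt2b7 was called in males at 2 mg/kg bw/day, and the log2 changes of the other 7 ranged from -0.47 for Ugt2b37 to 0.52 for Ugt2a3, with 0 called. Ugt2b15, Ugt2b37 and Ugt2b35, which lie on one side of Ugt2b7, were at -0.17 ± 0.16, -0.47 ± 0.27 and -0.32 ± 0.37 in males, and Ugt2b10, beyond Ugt2b1, at -0.12 ± 0.26. In females these 7 ranged from -0.09 to 0.43. Genes of this family are alike in sequence, Ugt2b7l1 beside Ugt2b7 had no probe, and whether the Ugt2b7 probe also reads it was not tested.

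**Figure D3:**
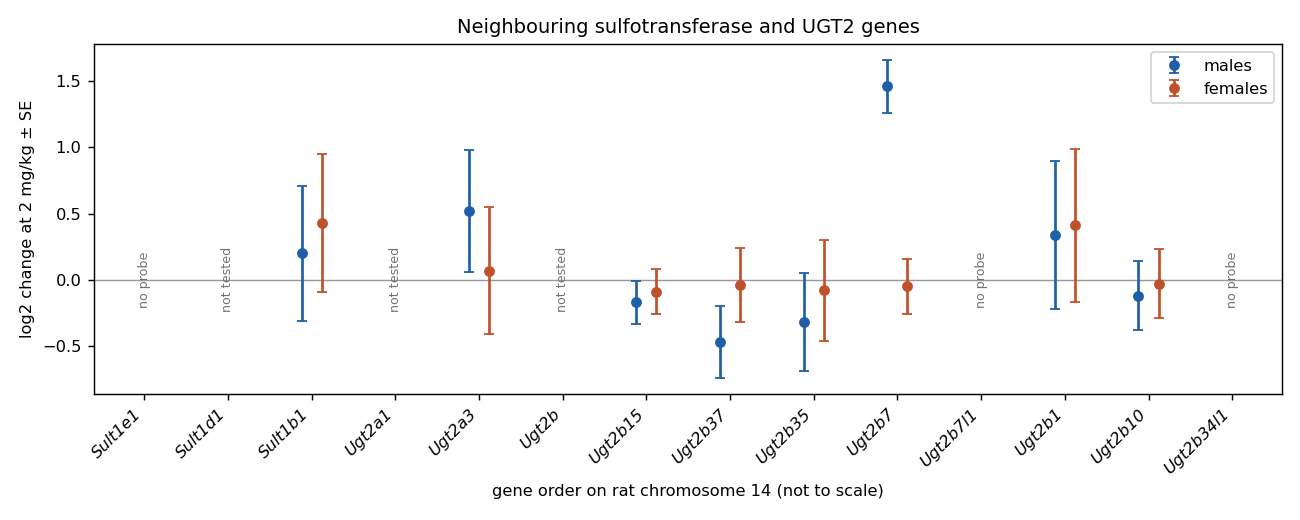
Log2 change at 2 mg/kg bw/day with its SE (y axis) of 14 genes in their order on chromosome 14 (x axis), males blue and females orange, from the model with slide. The male Ugt2b7 value of 1.46 stands above neighbours that lie between -0.47 and 0.52, and genes without a probe or below the signal filter are marked in grey.

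Of 47 other genes of the pathway that were listed, 33 had a probe and 25 were tested. In males at 2 mg/kg bw/day 1 rose and 3 fell, beside 2.43% and 1.38% of all tested probes, and in females 0 were called, beside 0.657%. The riser was Ugdh, which makes UDP-glucuronic acid, the donor that UGT enzymes use. Its log2 ratio had a median of 1.46 in control males (0.88 to 1.66) and 2.38 at 2 mg/kg bw/day (1.46 to 2.55), ranges that overlap, and the change was 0.86 ± 0.18 (FC = 1.81, adjusted p = 0.00151). In females the Ugdh change was 0.16 ± 0.19. The sex difference was 0.70 ± 0.25 (adjusted p = 0.188), and without the dim array 0.77 ± 0.20 (adjusted p = 0.0392).

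The genes that fell in males were Sts, Tpst1 and Sult1c2. Sts, the steroid sulfatase, which removes sulfate from steroids, went from 2.95 to 3.36 in control males to 1.73 to 2.60 at the top dose without overlap (-0.85 ± 0.28, adjusted p = 0.0373). Tpst1, which sulfates tyrosines of secreted proteins, went from 1.36 to 1.81 to 0.65 to 1.35, also without overlap (-0.67 ± 0.20, adjusted p = 0.0185). Of all tested probes 4.26% had no overlap in males at this dose. Sult1c2, a cytosolic sulfotransferase, changed by -0.61 ± 0.18 (adjusted p = 0.0172) with overlapping arrays. In females Tpst1 was at 0.05 ± 0.20 and Sult1c2 at -0.14 ± 0.18. The Sts arrays of females did not overlap either (2.67 to 3.08 in controls and 1.93 to 2.56 at 2 mg/kg bw/day), beside 4% of all tested probes. The female Sts change was -0.32 ± 0.29, not called, and without the dim array -0.48 ± 0.11 (adjusted p = 0.0103), short of the fold threshold. Female arrays of Ugt2b10 were also apart, at 4.26 to 5.37 in controls and 2.82 to 3.97 at the top dose. With slide in the model the Ugt2b10 change was -0.03 ± 0.26. These ranges are as measured, with slide differences in them. The difference in the Sts change between the sexes was not called (males minus females, -0.52 ± 0.39, adjusted p = 0.541).

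Without the dim array 8 of these 25 genes were called in males at 2 mg/kg bw/day, beside 5.07% of all probes. The additional ones all fell and were Sult1c2a (-0.72 ± 0.16), Sult1c3 (-1.03 ± 0.17), Sult2a6 (-0.87 ± 0.18) and the sulfate carrier Slc26a1 (-0.71 ± 0.11). The medians over the tested genes with all arrays were -0.17 for 5 other UGT genes, -0.64 for 8 other sulfotransferase genes and -0.10 for 12 genes of cofactor supply and deconjugation. The 8 sulfotransferases thus sat lower than the median of all probes, -0.02, with 2 of 8 called as fallen, beside 1.38% of all tested probes. The 10 hepatocyte markers also sat low in this comparison, with a median of -0.43 and 0 of 10 changes above 0.

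**Figure D4:**
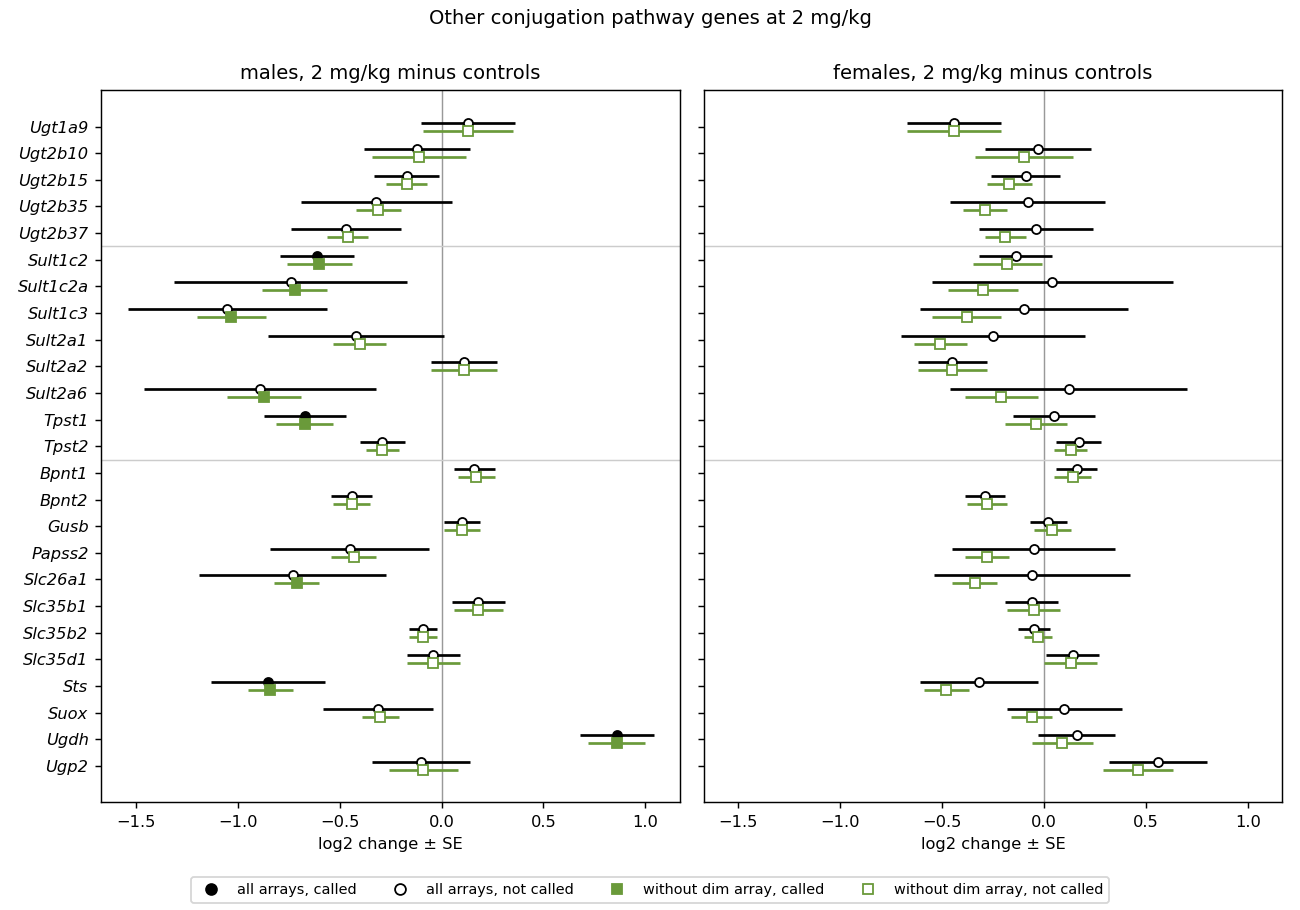
Log2 change at 2 mg/kg bw/day with its SE (x axis) of 25 other pathway genes in males and females, ordered as UGT genes, sulfotransferases, and cofactor supply and deconjugation. Filled symbols are called changes, black circles use all arrays and green squares leave out the dim one, which adds 4 called genes in males and none in females.

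Between control males and control females 6 of the 25 were called, beside 5.51% of all tested probes. Without the dim array Sult1c3, higher in males (1.03 ± 0.16, adjusted p = 1.21e-05), was called too, which makes 7, beside 6.42%. Sult2a2, a hydroxysteroid sulfotransferase, read 0.17 to 0.61 in control males, where 3 of 5 arrays were well above background, and 6.62 to 7.90 in control females, a log2 difference of -7.00 ± 0.16 (males minus females, adjusted p = 1.12e-28). Its relatives Sult2a6 (-1.97 ± 0.55) and Sult2a1 (-1.23 ± 0.42) and the UGT genes Ugt2b10 (-1.88 ± 0.25) and Ugt1a9 (-1.78 ± 0.22) were also higher in females. Ugp2, which makes UDP-glucose, was higher in males (0.70 ± 0.23). With all arrays 0 of these 6 were called at 2 mg/kg bw/day in either sex, beside 3.81% of all tested probes in males and 0.657% in females.

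Among cell markers, 4 of 9 tested bile duct markers rose in males at 2 mg/kg bw/day, beside the 2.43% of all tested probes that rose. They were Epcam (0.92 ± 0.17), Cftr (0.94 ± 0.20), Anxa2 (0.81 ± 0.23) and Krt19 (0.76 ± 0.23). The mean log2 ratio of the 9, as measured, was -1.19 to -1.07 in control males and -1.10 to -0.05 in those treated. In females it was -1.13 to -0.91 in controls and -0.83 to -0.61 at 2 mg/kg bw/day. With slide in the model the female median change was 0.03 and 0 were called, so these ranges also hold slide differences. In males 7 of the 9 changes were above 0. Of 10 hepatocyte markers 1 fell, Tat (-1.05 ± 0.33), with a median over the list of -0.43, and of 9 stellate cell, 8 macrophage and 4 enterocyte markers 0 were called with all arrays. Without the dim array 5 of 9 bile duct, 3 of 9 stellate cell and 1 of 4 enterocyte markers rose in males, beside 5.07% of all probes called in either direction, and 1 of 9 bile duct markers rose in females, beside 1.4%. No marker with a probe was below background on every array. Their part in the Ugt2b7 result was not tested.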

How the data were processed

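Per the file headers, the authors read the arrays with Agilent Feature Extraction 10.7.3.1 at 3 micrometres, on an array design annotated on rn4. The deposited scanner files hold median pixel intensity per spot and background, a log10 ratio of liver over reference, and 0 or 1 quality marks. The deposited series matrix holds the authors' log2 ratios, whose columns do not match the files one to one and were used by group without slide.

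Intensities were corrected by normexp (offset 50) and loess in limma 3.58.1 (R 4.3.3). Spots marked non-uniform or outlying were left out, and the rest averaged per probe. A probe was tested (17661 were) if at least 4 arrays of some group showed liver signal well above background. The model held 10 group means and 8 slides, and adjusted p values are Benjamini-Hochberg over all tested probes, 2-sided. Each gene is counted by its brightest probe. Names came from RefSeq (GRCr8). On simulated data for males at 2 mg/kg over 17661 probes, 93.5% of 200 probes changed 2-fold were recovered. Those 200 were drawn at random from all tested probes. In males at that dose Ugt2b1, Sult1b1 and Ugt2a3 had SEs of 0.56, 0.51 and 0.46, and recovery at such SEs was not examined.

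The genes and lists were chosen with earlier results of these data known. Listed genes are named where called, with up to 5 per direction between control sexes. The alternatives tried were the slide term (none or random), the dim array, the normalization, the background, the signal filter, the mean over probes and each rat left out. The number of arrays limits the precision.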

Additional observations from a re-analysis of the deposited data

Results flagged for a closer look

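The difference of the Ugt2b7 effect at 2 mg/kg bw/day between males and females was 1.51 on the log2 scale by the interaction term of the limma model. Each of the 60 groups of arrays (10 groups for each of 6 genes) was also scanned with Dixon's ratio, the gap of the extreme array to its neighbour over the group's range, and 6 were past the critical value, where chance alone passes about 1 in 20.

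The array of male 26 at 0.03 mg/kg bw/day, the dim one, was lowest for Sult1b1 (ratio 0.87) and for Ugt2b1 (0.86). Female 90 at 2 mg/kg bw/day, the 1 array of its group on slide 2, was highest for Sult1a1 (0.84) and for Ugt2b1 (0.73). Male 44 at 0.12 mg/kg bw/day, also on slide 2, was highest for Sult1b1 (0.73). Female 51 at 0.12 mg/kg bw/day was lowest for Ugt2b1 (0.71). These 6 ratios use log2 ratios as measured, with slide differences in them.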

How the results depend on the processing

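The rise of Ugt2b7 in males at 2 mg/kg bw/day was called in every alternative run, and with each of the 10 rats of the compared groups left out in turn. Its log2 change was 1.42 to 1.62 in the alternatives that kept every rat or left out the dim array or slides 5 and 6, except 3.21 with the scanner software's ratio. Its call between the sexes was not, and the count of conjugation genes called for the sex difference went from 1 to 0 without the slide term (Ugt2b7 1.24, adjusted p = 0.71), with median centring (1.5, adjusted p = 0.114), with the authors' normalised values (1.23, adjusted p = 0.541) and without slides 5 and 6, an alternative chosen after seeing the data (1.57, adjusted p = 0.104). With single rats left out it was 0 to 1. The cause was not tested. Median centring moved the median of all probes to 0.08 and -0.08 for males and females at 2 mg/kg, 0.19 for the sex difference and -0.17 for the control sexes.

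Between control sexes 1 conjugation gene was called without the dim array, beside 6.42% of all tested probes. With median centring 2 were, Ugt1a6 (-0.69) and Ugt2a3 (-1.43), beside 1544 of 17661 probes. Other pathway genes called in males at 2 mg/kg went from 4 to 0 without the slide term, 8 without the dim array, 2 with median centring or the authors' values, and 3 without the signal filter or without slides 5 and 6. With single rats left out this count was 1 to 4 (1 without control male 2 or male 84, 2 without male 87), that of conjugation genes at 0.03 mg/kg in males 0 to 5 and that at any dose in males 1 to 5 (5 without male 22, 2 without male 27). The shares of all tested probes called with single rats left out are not given here.

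The other turned values were all uncalled, on the log2 scale. Without the slide term the female changes at 2 mg/kg were 0.35 for Ugt2b7, -0.17 for Ugt2b1, -0.27 for Ugt1a6, -0.62 for Ugt2a3, -0.88 for Sult1a1 and -0.02 for Sult1b1, the sex differences 0.34 for Ugt2b1 and 0.11 for Sult1b1, and the male Ugt1a6 change -0.01. With slide as a random block the female changes were 0.01 for Ugt2b7, -0.04 for Ugt2a3 and -0.09 for Sult1a1. Without the dim array the female changes of Ugt2a3 and Sult1a1 were -0.18 and -0.06, and the sex differences of Ugt2b1 and Sult1b1 0.28 and 0.07. With median centring the female changes of Ugt1a6, Ugt2a3 and Sult1a1 were -0.03, -0.18 and -0.07, the sex differences of Ugt2b1 and Sult1b1 0.24 and 0.05, and the control sex differences of Ugt2b7 and Sult1a1 -0.05 and -0.06. With the scanner software's ratio Ugt2a3 was -0.70 in males, -1.0 for the sex difference and 1.05 between control sexes, Ugt2b7 -0.22 between control sexes and Sult1a1 -0.08 in females. With the authors' values the female changes were 0.39 for Ugt2b7, -0.14 for Ugt2b1, -0.06 for Ugt1a6, -0.83 for Ugt2a3 and -0.73 for Sult1a1, and the sex differences 0.50 for Ugt2b1, 0.24 for Sult1a1 and 0.23 for Sult1b1. With single rats left out the Ugt2b1 sex difference was -0.29 to 0.05, and the female changes of Ugt2a3 and Sult1a1 -0.07 to 0.20 and -0.01 to 0.15. No background correction, no signal filter and the mean over probes turned no value and ended no call of the 6 conjugation genes.

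No paired analysis was possible because rat numbers shared by groups name different rats, and dose groups of a sex share none.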

Other observations

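By Pearson r within each sex, with slide means removed, the 2 genes whose brightest probe was most like Ugt2b7 over all arrays were Pvr (mean r of both sexes 0.68) and Ebi3 (0.67), and without the dim array Slc25a4 (0.73) and Mdm2 (0.72). Without that array the closest were Ces1c and Ces1d to Sult1a1 (both 0.89), Cyp2j4 (0.86) and Pipox (0.82) to Sult1b1, Psme2 (0.80) and Vill (0.76) to Ugt1a6, Mttp and Glud1 (both 0.72) to Ugt2a3, and Aldh1a1 (0.83) and Cyp2j4 (0.80) to Ugt2b1. For each of the 6 genes at least 1 of its 2 closest differed with the dim array kept, when Sult1b1 was closest to Cyp2j4 (0.95) and Sult1a1 to Cyp2j3 (0.94). In the values without the dim array, it was left out of the correlations only. The slide means still held it, which shifted the other arrays of its slide. Those r and closest genes are therefore not free of the dim array. These 23 male and 25 female arrays share slides and a reference, and the values are descriptions. Ugt2b7 was not well above background on many of them, most of all in females.

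Between genes of the set, Ugt2b7 and Sult1a1 ran opposite to each other with slide means removed, at r = -0.68 over the 23 males and -0.53 over the 25 females. In females Ugt2b7 ran opposite to the other 4 as well, at r = -0.44 with Sult1b1, -0.44 with Ugt1a6, -0.36 with Ugt2a3 and -0.46 with Ugt2b1, while in males these were -0.01, 0.27, 0.11 and 0.19. Ugt2b7 was well above background on 4 of 5 control females, 1 of 5 females at 2 mg/kg bw/day and 2 of 5 in each other female group. Most female values behind its r were thus near background. The slide means were estimated with the dim array included, which shifted the other arrays of slide 8. Female 82 at 2 mg/kg bw/day went from 6.83 to 7.67 for Sult1b1 and from -1.08 to -1.48 for Ugt2b7. Such opposite shifts, and the differences between dose groups, are part of these r. Among the others r was highest in males for Sult1b1 with Ugt2a3 (0.85) and in females for Sult1a1 with Sult1b1 (0.84).

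The slide of an array moved with the liver signal, 2 slides held no control, and in no group but the top-dose males was Ugt2b7 well above background on all arrays, so its fold change there is set against a low signal. Transcript levels are no measure of enzyme activity, and no protein was measured.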
